A study of Mus musculus with 55 samples.

Results

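Schlafen genes encode a family of proteins that interferons and microbial signals induce in immune cells. The 7 members described here are Slfn1, Slfn2, Slfn3, Slfn4, Slfn5, Slfn8 and Slfn9, chosen by gene symbol. They are 7 of the 56941 gene identifiers counted at day 7 and of the 57186 counted at day 28, and all 7 passed the filter on low counts at both days. The family was proposed with the high Slfn4 level of type 2 diabetic infarcts at day 7 already known. Values of that comparison are therefore a description with no test, while the other comparisons were tested.

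Sequenced RNA came from the infarct of the left ventricle in C57BL/6J mice after permanent ligation of a coronary artery, a model of myocardial infarction. By the sample titles each of the non-diabetic, type 1 and type 2 groups held 8 libraries at day 7, and 11, 10 and 10 at day 28. The study's title asks how immune and metabolic signatures differ between the types of diabetes after infarction. Library names carry Ctrl for non-diabetic, hi_STZ for type 1 and lo_STZ_HFFD for type 2 tissue, abbreviations that the labels do not spell out, so the diabetic groups also differ by what these names stand for. Controls had an infarct too, so no comparison speaks of uninjured heart. Sex and age are not in the labels. Nothing in the labels says that replicates are separate animals, so p-values measure only how far these libraries spread, and part of that may be technical. Some libraries of a group share the first number of their name, and the labels do not say what it stands for. Summed by that number, the non-diabetic, type 1 and type 2 groups held 6, 6 and 4 sums at day 7. At day 28 they held 4, 4 and 5. Library names put the days in separate sequencing projects, and the effects of day and of project cannot be told apart.

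Library totals ran from 10756242 to 51158036 counts at day 7 and from 48105347 to 92869315 at day 28. Every library held counts of Myh6 of cardiomyocytes, Col1a1 of fibroblasts and Adgre1 of macrophages. Type 1 replicate 4 at day 7 stood apart, with the lowest summed level of 20 cardiomyocyte markers of its group (3030 CPM, counts per TMM-scaled library size) and the highest of 8 B cell markers (3977 CPM). Its sum of 6 adipocyte markers was also the highest of the group (594.3 CPM, against a group median of 0.178 CPM). Type 2 replicate 4 at day 28 likewise had the lowest cardiomyocyte sum (15410 CPM) and the highest B cell sum (7498 CPM) of its group. Non-diabetic replicate 5 at day 28 had the lowest monocyte (378.6 CPM) and macrophage (846.9 CPM) marker sums of its group. Without each of these 3 libraries in turn, every call of a member in the tested comparisons of that day was kept, and Slfn9 was gained without type 1 replicate 4.

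Mouse Schlafen proteins fall into short forms (Slfn1, Slfn2), intermediate forms (Slfn3, Slfn4) and long forms with a helicase-like region (Slfn5, Slfn8, Slfn9). Members of the family bind or cut transfer RNA and so touch translation, and they are known from T cells, monocytes and macrophages, where interferon acts through STAT and IRF transcription factors on their promoters. In a healing infarct the monocytes and macrophages that clear dead muscle are among the cells that can carry them. In bulk tissue, fewer cells of a type and less RNA per cell cannot be told apart.

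The members lie in a cluster on chromosome 11, and their promoters are shown because several of these genes were called together. The windows are from RefSeq on build GRCm38.p6, run from 250 bases before to 50 bases from a transcription start, and are written 5′ to 3′ on the strand of the gene. All 7 members matched the table, with 8 windows, since Slfn8 has 2. Capitals mark matches on either strand to an IRF core (AANNGAAA), an interferon response element of the ISRE-like form (GAAA repeated after any 2 bases, each match holding an IRF core) and an ETS-like motif (ACTTCCTG). The first 2 were taken as known interferon motifs, and the ETS-like letters were chosen after the windows had been read. Slfn1, Slfn4, Slfn5 and Slfn8 are printed, at chr11:83116570-83116869 (+), chr11:83174936-83175235 (+), chr11:82951852-82952151 (+) and chr11:83020761-83021060 (-, the more upstream of its starts).
Slfn1: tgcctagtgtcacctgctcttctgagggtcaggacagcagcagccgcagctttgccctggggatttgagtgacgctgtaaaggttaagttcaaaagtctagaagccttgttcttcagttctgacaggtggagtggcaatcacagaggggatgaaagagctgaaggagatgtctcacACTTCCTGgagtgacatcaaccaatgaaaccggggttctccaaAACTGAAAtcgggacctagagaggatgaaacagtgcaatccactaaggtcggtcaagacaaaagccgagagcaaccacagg
Slfn4: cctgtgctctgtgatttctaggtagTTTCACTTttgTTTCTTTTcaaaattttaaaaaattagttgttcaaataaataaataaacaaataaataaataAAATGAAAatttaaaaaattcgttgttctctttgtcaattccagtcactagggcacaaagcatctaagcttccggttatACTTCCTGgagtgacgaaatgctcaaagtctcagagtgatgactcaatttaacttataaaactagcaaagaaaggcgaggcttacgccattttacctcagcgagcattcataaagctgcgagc
Slfn5: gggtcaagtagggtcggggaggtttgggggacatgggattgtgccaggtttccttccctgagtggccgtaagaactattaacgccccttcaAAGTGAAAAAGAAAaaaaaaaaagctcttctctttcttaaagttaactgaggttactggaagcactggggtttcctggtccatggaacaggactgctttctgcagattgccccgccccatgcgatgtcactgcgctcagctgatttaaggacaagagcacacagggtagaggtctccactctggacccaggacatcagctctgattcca
Slfn8: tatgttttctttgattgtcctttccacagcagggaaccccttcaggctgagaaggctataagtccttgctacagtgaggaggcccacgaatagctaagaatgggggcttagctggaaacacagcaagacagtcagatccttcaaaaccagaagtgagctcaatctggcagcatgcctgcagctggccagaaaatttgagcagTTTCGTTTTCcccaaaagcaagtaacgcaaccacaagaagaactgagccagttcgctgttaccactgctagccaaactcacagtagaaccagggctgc
The ISRE-like motif was present in Slfn5, Slfn8 and Slfn9 and in 3.44 percent of all 32851 windows of the table. An IRF core was found in all 7 members and in 23.9 percent of windows. The ETS-like motif stood in Slfn1, Slfn2, Slfn3 and Slfn4 and in 3.33 percent of windows, and in Slfn2 it overlapped an IRF core. A STAT motif of the GAS-like form (TTCNNNGAA) was in no member window and in 8.3 percent of all windows. Slfn1 and Slfn4 shared a run of 15 bases that starts with the ETS-like motif, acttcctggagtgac, with its first base at -74 and -73 from their starts. Slfn8 and Slfn9, neighbours on the minus strand, shared a run of 20 bases. A match describes letters in these windows and says nothing of a bound factor.

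**Figure D1:**
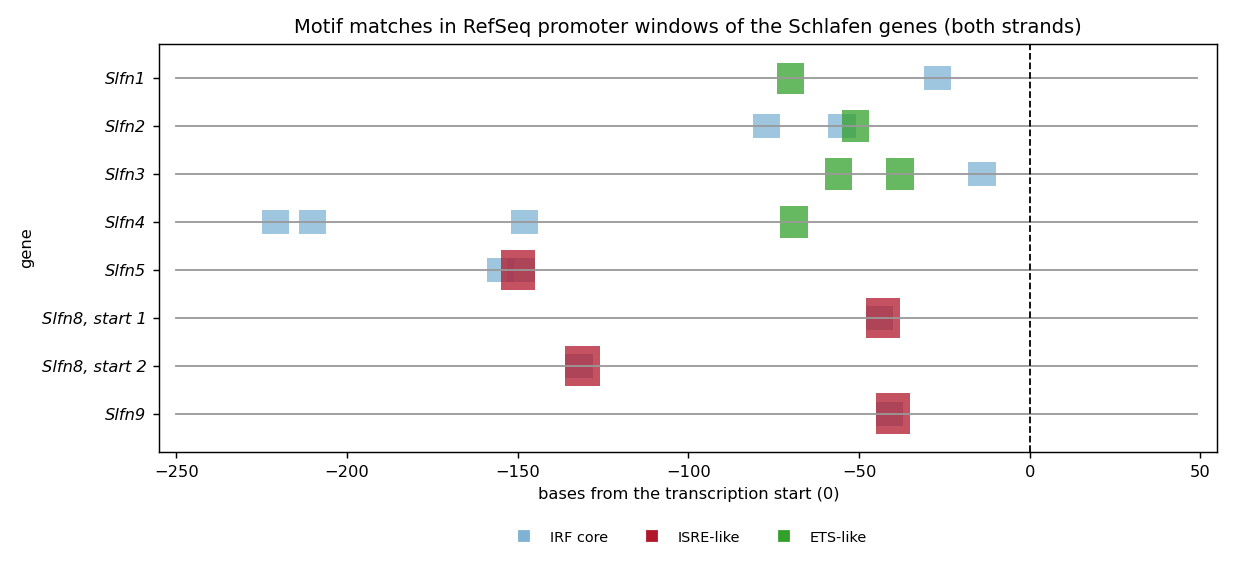
Positions of motif matches in the promoter windows of the 7 Schlafen genes, 1 line per window, in bases from the transcription start (0), with blue boxes for the IRF core, red for the ISRE-like and green for the ETS-like motif. Red boxes are on Slfn5, Slfn8 and Slfn9, and green boxes on Slfn1, Slfn2, Slfn3 and Slfn4.

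Reads of near-identical paralogs can be split by the authors' counting. Of the 75-base stretches of each gene's annotated transcripts (GENCODE M21), none in Slfn1 recurred in another family gene, 1.7 percent did in Slfn2, 1.32 in Slfn3 and 1.78 in Slfn4. The share was 6.99 percent in Slfn8 and 5.9 percent in Slfn9, where Slfn10-ps, a pseudogene with 0 counts in every library, held 4.98 and 4.48 percent and the other of the pair 3.68 and 2.62 percent. How shared reads were counted is not given, so how far this affects the levels of Slfn8 and Slfn9 is not known. In Slfn5 it was 6.59 percent, all of it shared with the antisense gene Slfn5os, whose group medians were 0.11 to 0.542 CPM against 114 to 221 CPM for Slfn5. Slfn14, a ribonuclease of platelets and red cell precursors, and Slfnl1 were at or near 0, with at most 0.582 and 0.246 CPM in any library, and neither was tested.

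Per length of exon, Slfn2 and Slfn5 had the highest levels. In non-diabetic infarcts at day 7 the median was 36.0 CPM per kilobase for Slfn2 and 24.8 for Slfn5, and the ranges of these genes over libraries overlapped. Slfn8 followed at 6.66, Slfn9 at 3.47, Slfn1 at 3.36, Slfn4 at 2.35 and Slfn3 at 0.881 CPM per kilobase. The lowest Slfn5 library (18.1) was above the highest Slfn8 library (8.96), and the lowest Slfn4 library (1.08) above the highest Slfn3 library (0.981), while the other neighbours in this order overlapped. In type 1 infarcts at day 7, Slfn1 (10.1) and Slfn4 (7.89) stood next to Slfn2 (62.5) and Slfn5 (28.1), ahead of Slfn8 (7.56), Slfn9 (5.58) and Slfn3 (1.10), and the ranges of Slfn1, Slfn4, Slfn8 and Slfn9 overlapped from each to the next. In type 2 infarcts at day 7 the order was Slfn2 (57.3), Slfn5 (34.9), Slfn8 (11.2), Slfn1 (8.78), Slfn4 (8.31), Slfn9 (6.18) and Slfn3 (1.25), and overlap between neighbours was missing between Slfn2 and Slfn5, between Slfn5 and Slfn8 and between Slfn9 and Slfn3. At day 28 in non-diabetic tissue the medians were 18.1 CPM per kilobase for Slfn5, 16.0 for Slfn2, 2.72 for Slfn8, 1.20 for Slfn1, 0.916 for Slfn9, 0.576 for Slfn3 and 0.422 for Slfn4. Type 1 tissue at day 28 had medians of 19.4 for Slfn5, 18.3 for Slfn2, 2.72 for Slfn8, 1.56 for Slfn1, 0.984 for Slfn9, 0.666 for Slfn4 and 0.637 for Slfn3, and type 2 tissue 32.3 for Slfn2, 22.6 for Slfn5, 5.23 for Slfn8, 4.11 for Slfn1, 1.63 for Slfn4, 1.55 for Slfn9 and 0.715 for Slfn3. In each group at day 28 the only neighbours in this order without overlap were Slfn8 and the gene just above it.

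The first comparison set type 1 diabetic against non-diabetic infarcts at day 7. Its controls are also those of the comparison that proposed the family. Slfn1, Slfn2, Slfn4 and Slfn5 were higher in type 1 tissue, Slfn4 by 1.95 (SE 0.288) and Slfn1 by 1.56 (SE 0.208) on the log2 scale (n = 8 against 8). These were 4 of 7 members called higher at an adjusted p at or under 0.05, where 11.1 percent of the 18165 genes tested were called higher. The median log2 change of the members was 0.58, against -0.01 over all genes tested.

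The short forms were both higher. Slfn1, which slows T cell growth when overexpressed in mice, was at 3.11 (lowest), 6.27 (median) and 9.01 CPM (highest) in non-diabetic libraries at day 7 and at 13.4, 18.8 and 26.5 CPM in type 1 libraries. Every type 1 library was above every non-diabetic library, and the fitted change was 2.96-fold (adjusted p = 1.29e-04). Slfn2, which keeps T cells and monocytes quiescent and shields transfer RNA from cleavage, was at 40.3, 60.0 and 113.6 CPM in non-diabetic and 86.5, 104.0 and 161.8 CPM in type 1 libraries. These groups overlapped through non-diabetic replicate 5, and Slfn2 was higher by 0.78 (SE 0.161, adjusted p = 0.00162), with 8 of 8 type 1 libraries above the non-diabetic mean. With the mean level of neutrophil and monocyte markers as a covariate its change was 0.25 and no longer called (adjusted p = 0.16).

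Of the intermediate forms Slfn4 was called, a myeloid gene that interferon and Toll-like receptor ligands induce. Slfn4 ran at 4.27, 9.31 and 12.8 CPM in non-diabetic and at 23.1, 31.3 and 60.5 CPM in type 1 libraries, with no overlap between the groups. Its fitted change was 3.87-fold (adjusted p = 1.54e-04), the highest of the members. Slfn1 and Slfn4 were the 2 members whose groups did not overlap, as in 0.617 percent of all genes tested with type 1 higher. Slfn3, studied in the differentiation of gut epithelium in rodents, was at 1.83, 3.00 and 3.35 CPM in non-diabetic and 2.58, 3.74 and 4.70 CPM in type 1 libraries. These ranges overlapped, and its change of 0.42 (SE 0.16, adjusted p = 0.0599) missed the threshold. It passed without non-diabetic replicates 3 (0.47, adjusted p = 0.0485), 5 (0.47, 0.0358) or 6 (0.46, 0.049), type 1 replicates 3 (0.48, 0.0295) or 6 (0.48, 0.0396), or type 2 replicate 2 (0.43, 0.0463).

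Of the long forms only Slfn5 was called. Slfn5, which type I interferon induces, was at 114, 157 and 176 CPM in non-diabetic and 155, 178 and 213 CPM in type 1 libraries. The groups overlapped, and the change of 0.26 (SE 0.0852, adjusted p = 0.0284) was called. The call was lost with interferon-stimulated genes (0.02, adjusted p = 0.926), T and NK cell markers (0.22, 0.0812) or neutrophil and monocyte markers (0.34, 0.0557) as a covariate. It was also lost without non-diabetic replicate 1 (0.24, adjusted p = 0.0524), type 1 replicate 1 (0.23, 0.0543) or type 1 replicate 8 (0.24, 0.0577), with no filter on low counts (0.26, 0.067), in a fit of only these groups (0.26, 0.0563) and with libraries summed by the first number of their name (0.25, 0.127). Slfn8 and Slfn9 are mouse relatives of human Schlafen nucleases that cut transfer RNA. Slfn8 was at 11.2, 27.3 and 36.7 CPM in non-diabetic and 24.9, 30.9 and 48.0 CPM in type 1 libraries, and its change of 0.37 (SE 0.168) was not called (adjusted p = 0.111), except without non-diabetic replicate 7 (0.48, adjusted p = 0.0362). Slfn9 was at 9.71, 20.7 and 35.7 CPM in non-diabetic and 15.6, 33.3 and 40.6 CPM in type 1 libraries. Its change of 0.58 (SE 0.215, adjusted p = 0.0545) missed the threshold. It passed without the low type 1 replicate 4 (0.68, adjusted p = 0.015), non-diabetic replicate 6 (0.70, 0.0211) or non-diabetic replicate 7 (0.73, 0.0129).

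**Figure D2:**
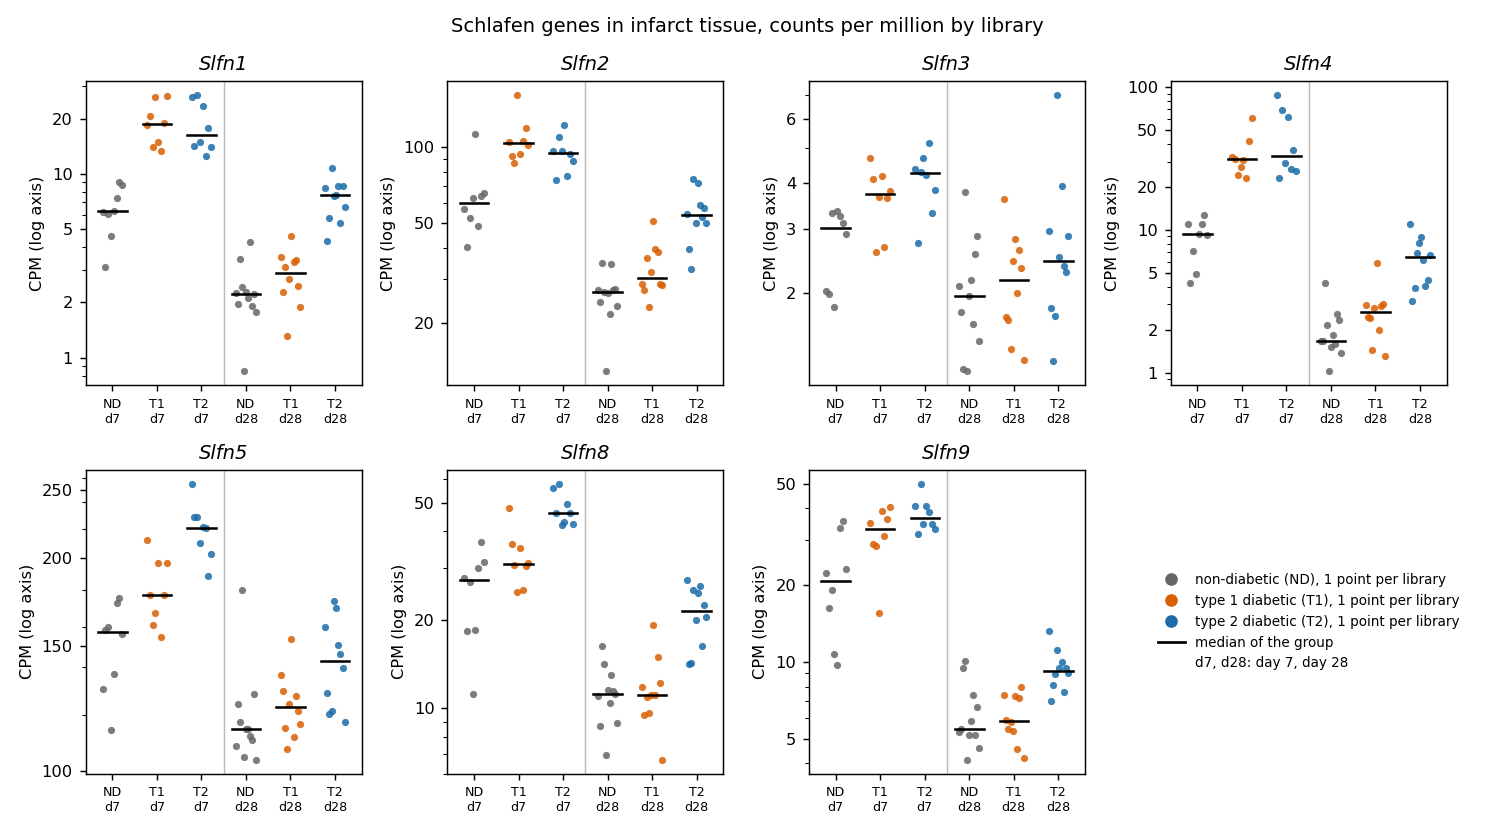
Level of each Schlafen gene in every library, in CPM on a log axis, by group (ND non-diabetic, T1 type 1 diabetic, T2 type 2 diabetic; d7 day 7, d28 day 28), with the group median as a bar. Slfn1 and Slfn4 at day 7 show both diabetic groups wholly above the non-diabetic one, and at day 28 the type 1 points lie mostly among the non-diabetic points.

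Type 2 diabetic infarcts at day 7 hold the comparison the family was proposed from, and the values are given without a test. In this comparison 3.85 percent of all genes tested were called higher, and nothing is read from the calls of the members. Slfn4 was at 23.1, 32.9 and 88.5 CPM in type 2 libraries and its fitted log2 change over non-diabetic tissue was 2.36. Slfn1 was at 12.5, 16.4 and 26.97 CPM (change 1.53), and Slfn2 at 74.0, 95.3 and 123.2 CPM (change 0.59). Slfn3 was at 2.74, 4.26 and 5.17 CPM (change 0.57). Slfn1 and Slfn4 had no type 2 library within the non-diabetic range. Of the long forms, Slfn5 was at 188.8, 221 and 255 CPM (change 0.54), Slfn8 at 41.9, 46.0 and 58.1 CPM (change 0.92) and Slfn9 at 31.8, 36.8 and 50.1 CPM (change 0.83). Slfn5 and Slfn8 also lay wholly above the non-diabetic range, so 4 members did, as did 1.24 percent of all genes tested.

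Type 1 and type 2 diabetic infarcts at day 7 were also set against each other. This comparison uses the same diabetic libraries as the 2 above. No member was called (0 of 7, with 2.71 percent of all genes called in either direction and 2 members at an unadjusted p under 0.05). The 2 were Slfn8, lower in type 1 tissue by 0.55 (SE 0.167, adjusted p = 0.0722, 7 of 8 type 1 libraries below the type 2 mean), and Slfn5, lower by 0.28 (SE 0.0851, adjusted p = 0.0691, 8 of 8). DESeq2, limma-voom and a fit of only these groups each called these 2 members. Both were also called without non-diabetic replicate 4 (Slfn5 -0.28, Slfn8 -0.54), non-diabetic replicate 5 (-0.28, -0.55) or type 1 replicate 1 (-0.32, -0.64). For Slfn1 and Slfn4, the members with the largest changes in type 1 over non-diabetic tissue at day 7, the intervals were wide: the log2 difference between types was 0.04 for Slfn1 (95% interval -0.38 to 0.45) and -0.40 for Slfn4 (-0.96 to 0.16). A p above the threshold does not show that the types were alike.

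Each diabetic group was set against non-diabetic tissue at day 28 as well. Whether the difference between the types itself changed from day 7 to day 28 was not tested. In type 1 infarcts no member was called against non-diabetic tissue (0 of 7, with 4.02 percent of the 18901 genes tested called in either direction and 1 member, Slfn2, at an unadjusted p under 0.05). In type 2 infarcts 5 of 7 members were higher, where 7.21 percent of all genes tested were called higher. The median log2 change of the members was 0.08 in type 1 and 0.91 in type 2 tissue, with both medians over all genes at 0.00.

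Slfn1 at day 28 was at 0.845, 2.23 and 4.26 CPM in non-diabetic, 1.31, 2.91 and 4.61 CPM in type 1 and 4.30, 7.66 and 10.9 CPM in type 2 libraries. The type 2 libraries were all above the non-diabetic range, the only member with that pattern (0.354 percent of all genes tested), while the type 1 libraries lay mostly within it. The change was 1.67 (SE 0.209, adjusted p = 2.43e-06) in type 2 and 0.30 (95% interval -0.12 to 0.72) in type 1 tissue. Slfn2 was at 12.9, 26.7 and 34.8 CPM in non-diabetic, 23.3, 30.4 and 51.0 CPM in type 1 and 32.9, 53.8 and 74.7 CPM in type 2 libraries. Of the type 2 libraries 9 of 10 were above every non-diabetic library, and the change was 1.06 (SE 0.147, adjusted p = 1.07e-05). In type 1 tissue the change of 0.36 was not called (adjusted p = 0.166, 9 of 10 libraries above the non-diabetic mean), although limma-voom called it (0.40, adjusted p = 0.033).

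Slfn4 at day 28 was at 1.02, 1.67 and 4.28 CPM in non-diabetic, 1.30, 2.64 and 5.82 CPM in type 1 and 3.17, 6.44 and 11.0 CPM in type 2 libraries. It was 3.17-fold higher in type 2 tissue (log2 change 1.66, SE 0.25, adjusted p = 3.92e-05), with 7 of 10 libraries above the whole non-diabetic range. Its type 1 change was 0.45 (95% interval -0.06 to 0.95), and most type 1 libraries fell among the controls. Slfn3 was at 1.22, 1.96 and 3.79 CPM in non-diabetic, 1.30, 2.17 and 3.61 CPM in type 1 and 1.29, 2.44 and 7.01 CPM in type 2 libraries, with all ranges overlapping. Neither its type 2 change of 0.47 (adjusted p = 0.219) nor its type 1 change of 0.08 (adjusted p = 0.882) was called.

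Of the long forms at day 28, Slfn8 was at 6.96, 11.1 and 16.3 CPM in non-diabetic, 6.68, 11.1 and 19.2 CPM in type 1 and 14.2, 21.4 and 27.3 CPM in type 2 libraries. The non-diabetic and type 1 medians were equal to 3 digits, and 8 of 10 type 2 libraries exceeded every control, for a change of 0.91 (SE 0.153, adjusted p = 1.63e-04). Slfn9 was at 4.12, 5.46 and 10.1 CPM in non-diabetic, 4.20, 5.87 and 7.94 CPM in type 1 and 7.00, 9.23 and 13.3 CPM in type 2 libraries, higher in type 2 tissue by 0.58 (SE 0.145, adjusted p = 0.00889). Slfn5 was at 103.5, 114 and 180.1 CPM in non-diabetic, 107, 123 and 153 CPM in type 1 and 117, 143 and 174 CPM in type 2 libraries. No Slfn5 library of type 2 tissue passed the highest control, replicate 4, and the change of 0.25 (SE 0.0867, adjusted p = 0.0556) missed the threshold. Slfn5 was called without non-diabetic replicate 4 (0.32, adjusted p = 0.0035), type 1 replicate 6 (0.25, 0.0493), or type 2 replicates 2 (0.27, 0.0463), 3 (0.28, 0.0396) or 10 (0.28, 0.0383). With neutrophil and monocyte markers as a covariate, Slfn8 (0.57, adjusted p = 0.068) and Slfn9 (0.44, adjusted p = 0.19) lost their calls in type 2 tissue, and with the interferon-stimulated genes as one, all 5 did. All 25 of those interferon-stimulated genes were themselves higher in type 2 tissue, so this fit cannot separate the members from them. Slfn9 also lost its call with T and NK cell markers as a covariate (0.49, adjusted p = 0.121) and with libraries summed by the first number of their name (0.66, adjusted p = 0.0579).

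Set against each other at day 28, type 1 infarcts had lower levels than type 2 infarcts of 5 of 7 members, where 2.03 percent of all genes tested were lower. This comparison shares its libraries with the 2 before it. Slfn1 was lower by 1.37 (SE 0.213, adjusted p = 1.61e-04) and Slfn4 by 1.22 (SE 0.255, adjusted p = 0.00449) on the log2 scale. Slfn8 was lower by 0.85 (SE 0.157, adjusted p = 0.00121), Slfn2 by 0.71 (SE 0.15, adjusted p = 0.00532) and Slfn9 by 0.62 (SE 0.149, adjusted p = 0.0159). In each of these 5 genes all 10 type 1 libraries lay below the type 2 mean, and the ranges of the groups still overlapped, where 0.206 percent of all genes tested had type 1 wholly below type 2 tissue. Slfn3 (-0.39, adjusted p = 0.465) and Slfn5 (-0.20, adjusted p = 0.237) were not called. Leaving out any single library of the day kept these 5 calls. With neutrophil and monocyte markers as a covariate, Slfn2 (-0.35, adjusted p = 0.13), Slfn4 (-0.91, 0.052) and Slfn9 (-0.52, 0.084) lost them. With T and NK cell markers as one, Slfn2 (-0.35, adjusted p = 0.131) and Slfn9 (-0.54, 0.0636) did. With the interferon-stimulated genes as one, all 5 did: Slfn1 was at -0.49 (adjusted p = 0.425), Slfn2 at -0.12 (0.838), Slfn4 at 0.10 (0.899), Slfn8 at -0.04 (0.946) and Slfn9 at 0.16 (0.657). Of those 25 interferon-stimulated genes 24 were themselves lower in type 1 tissue, so this fit cannot separate the members from them. With libraries summed by the first number of their name, Slfn4 (-1.42, adjusted p = 0.0827) and Slfn9 (-0.65, 0.107) were not called.

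**Figure D3:**
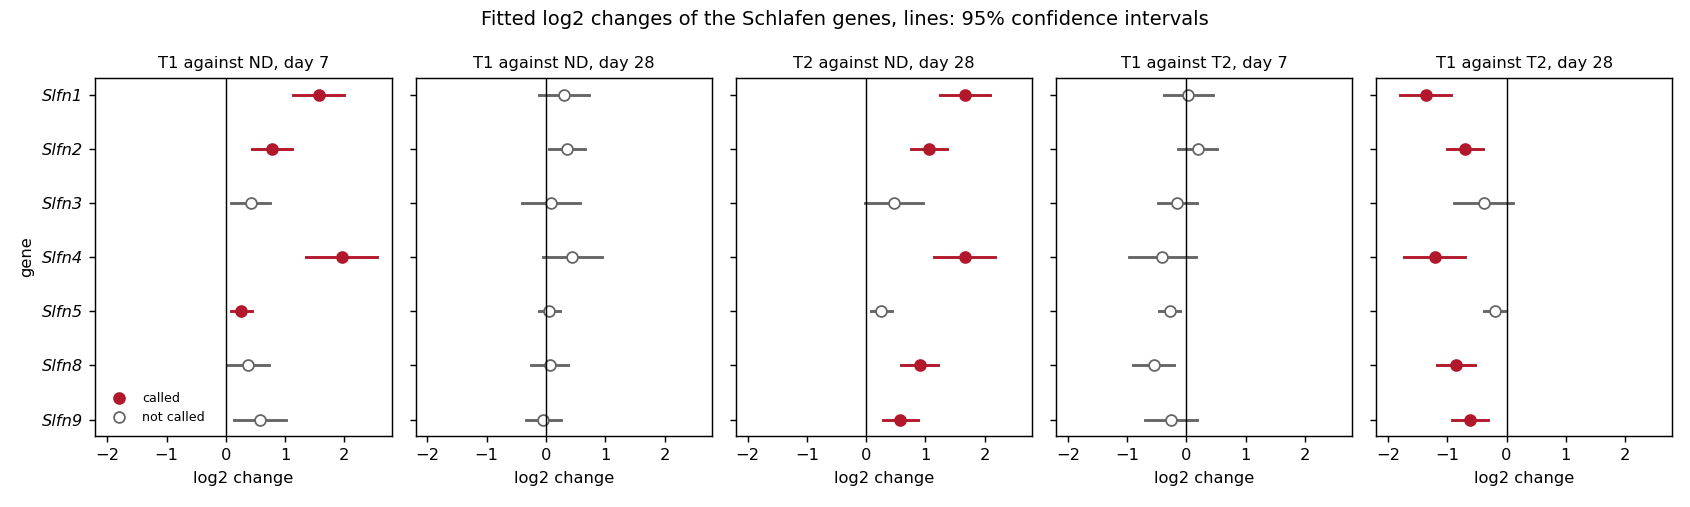
Fitted log2 change of each Schlafen gene (first group over second) with its 95% confidence interval, filled red where called and open grey where not (ND non-diabetic, T1 type 1, T2 type 2 diabetic). Slfn1 and Slfn4 are at 1.56 and 1.95 in T1 tissue at day 7, and at 0.30 and 0.45 at day 28.

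Whether the type 1 change itself differed between the days was tested as the day 28 change minus the day 7 change. It was lower at day 28 for Slfn1 by 1.28 (SE 0.299, adjusted p = 0.00276) and for Slfn4 by 1.53 (SE 0.383, adjusted p = 0.00525), 2 of 7 members, where 5.5 percent of the 20421 genes tested were lower. For Slfn2 the difference was -0.44 (95% interval -0.87 to 0.00), for Slfn9 -0.64 (-1.16 to -0.11, adjusted p = 0.0996), for Slfn3 -0.35, for Slfn8 -0.33 and for Slfn5 -0.22, none of them called. Without type 1 replicate 4 of day 7, Slfn9 was also called (-0.74, adjusted p = 0.0379). Beside these, 6 of 13 neutrophil and 5 of 14 monocyte markers were lower in the same test, with 2 monocyte markers higher. Of the macrophage markers 5 of 15 were lower, as were 8 of 10 erythroid and platelet markers, and 5 of 8 fibroblast markers were higher, where 6.98 percent of all genes tested were higher. The part of these markers in the Slfn1 and Slfn4 differences was not tested. Of 25 interferon-stimulated genes 1 was lower, Mx1 (-0.96, adjusted p = 0.00948). In type 2 tissue the changes at day 7 and day 28 were, side by side and with no test of their difference, 1.53 and 1.67 for Slfn1, 0.59 and 1.06 for Slfn2, 2.36 and 1.66 for Slfn4, 0.57 and 0.47 for Slfn3, 0.54 and 0.25 for Slfn5, 0.92 and 0.91 for Slfn8, and 0.83 and 0.58 for Slfn9.

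The rest of the interferon pathway was read from lists of genes. These lists and the cell marker lists were chosen with earlier results of these data known. Their counts beside the share of all genes are therefore a description. Apart from a few set by name, the genes named are up to 3 a list with the smallest p in type 1 tissue at day 7. They do not stand for their whole list. The share of all genes tested that was called higher was 11.1 percent in type 1 tissue at day 7, 2.6 percent in type 1 tissue at day 28 and 7.21 percent in type 2 tissue at day 28. The interferons themselves were near the floor: Ifng had group medians from 0.0255 to 0.157 CPM, Ifnb1 at most 0.385 CPM in any library, and of 15 interferon and receptor genes 6 were tested. In type 1 tissue at day 7 the receptor chain Ifnar1 was higher by 0.19 (SE 0.0612, adjusted p = 0.0248), the only one of the 6 called. At day 28, 0 of these 6 were called in type 1 tissue and 0 in type 2 tissue, where Ifnar1 was at -0.17 (adjusted p = 0.0508).

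Among 16 genes of interferon signalling and its brakes, 5 were higher and 2 lower in type 1 tissue at day 7, 1 higher and 1 lower in type 1 tissue at day 28, and 8 higher in type 2 tissue at day 28. Irf7, the transcription factor that amplifies interferon responses, was higher in each of these: by 0.69 (SE 0.126, adjusted p = 6.12e-04), 0.76 (SE 0.154, adjusted p = 0.00438) and 1.99 (SE 0.158, adjusted p = 8.35e-10). Irf7 was thus higher in type 1 tissue at day 28, where no Schlafen gene was called, with 52.0 CPM against 30.6 CPM in controls (medians). Of the kinases at the receptor, Jak1 was higher by 0.25 and Tyk2 lower by 0.24 in type 1 tissue at day 7 (adjusted p = 0.0065 and 0.00805).

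Of 25 interferon-stimulated genes, 11 were higher in type 1 tissue at day 7 (median 0.32), 2 in type 1 tissue at day 28 (median 0.22) and 25 in type 2 tissue at day 28 (median 0.98), and none was lower in any of the 3. Mx1, an antiviral GTPase, was higher by 0.97 (SE 0.157, adjusted p = 2.68e-04), Epsti1 by 0.63 (SE 0.0953, adjusted p = 1.68e-04) and Ifi27l2a by 0.66 (SE 0.132, adjusted p = 0.00136) in type 1 tissue at day 7. Isg15, a ubiquitin-like modifier, was at 0.32 there (adjusted p = 0.187) and was higher by 1.10 (SE 0.16, adjusted p = 2.35e-05) in type 2 tissue at day 28. Type 1 tissue was lower than type 2 tissue in 15 of the 25 at day 7 (median -0.47) and in 24 at day 28 (median -0.75), where 1.19 and 2.03 percent of all genes tested were lower. Mx1, at 0.00 (SE 0.155, adjusted p = 0.999), was not among the 15 at day 7.

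Of 14 nucleic acid sensors tested, 6 were higher and 1 lower in type 1 tissue at day 7, 0 were called in type 1 tissue at day 28 and 9 were higher in type 2 tissue at day 28. Zbp1, a sensor of Z-form nucleic acid, was higher by 0.80 (SE 0.133, adjusted p = 3.31e-04) in the first, with no overlap of the groups, at 0.19 (adjusted p = 0.592) in the second and higher by 1.55 (SE 0.182, adjusted p = 7.95e-07) in the third. The RNA sensors Dhx58 and Ifih1 were higher by 0.49 and 0.41 in type 1 tissue at day 7 and by 1.16 and 0.65 in type 2 tissue at day 28.

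Schlafen proteins act on RNA and translation, and so do the next lists. Of 12 interferon-induced RNA and translation effectors, 10 were higher in type 1 tissue at day 7 (median 0.43), 1 in type 1 tissue at day 28 (0.09) and 10 in type 2 tissue at day 28 (0.54). Oas3, a sensor of double-stranded RNA, was higher by 0.89 (SE 0.18, adjusted p = 0.00147) in type 1 tissue at day 7 and by 1.87 (SE 0.207, adjusted p = 4.15e-07) in type 2 tissue at day 28. Ddx60 and Pnpt1 were higher by 0.60 and 0.36 in type 1 tissue at day 7. Of 6 tested genes of transfer RNA cleavage and protection, 3 were higher in type 1 tissue at day 7: the transfer RNA methyltransferases Nsun2 (0.36, adjusted p = 0.0023) and Trdmt1 (0.39, adjusted p = 0.0143) and the ribonuclease inhibitor Rnh1 (0.34, adjusted p = 0.0259). In type 2 tissue at day 28, 1 of the 6 was called, Trdmt1, lower by 0.22 (adjusted p = 0.0198).

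Markers of blood-derived cells were called beside the Schlafen genes. In type 1 tissue at day 7, 11 of 14 monocyte markers, 8 of 11 tested neutrophil markers and 10 of 15 macrophage markers were higher. The summed monocyte level was 519.5 to 862.9 CPM in non-diabetic, 763.9 to 1284 CPM in type 1 and 646.1 to 911.4 CPM in type 2 libraries at day 7. The neutrophil sum was 39.0 to 264.7 CPM, 98.3 to 827.3 CPM and 74.9 to 160.3 CPM in the same order. Ly6c2 of inflammatory monocytes was higher by 1.52 (SE 0.213, adjusted p = 1.29e-04) in type 1 tissue at day 7, with no overlap. S100a8 of neutrophils was higher by 2.56 (SE 0.624, adjusted p = 0.00527). Of the other lists at day 7, 8 of 10 erythroid and platelet markers were higher and 6 of 8 fibroblast markers lower in type 1 tissue, where 11.4 percent of all genes tested were lower, and 2 of 16 T cell and 3 of 10 NK cell markers were higher.

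At day 28 in type 1 tissue 2 of 14 monocyte, 1 of 15 macrophage and 0 of 11 tested neutrophil markers were higher. In type 2 tissue 8 of 14 monocyte, 6 of 15 macrophage, 2 of 11 neutrophil, 15 of 16 T cell, 7 of 10 NK cell and 3 of 8 dendritic cell markers were higher. The monocyte sum was 378.6 to 537.9 CPM in non-diabetic, 383.5 to 628.6 CPM in type 1 and 451.6 to 751.2 CPM in type 2 libraries, and the T cell sum 12.5 to 47.0, 16.6 to 35.2 and 21.1 to 180.1 CPM. The 2 neutrophil markers called in type 2 tissue at day 28 were Clec4e (1.17, adjusted p = 0.0468) and Trem1 (1.28, adjusted p = 0.0272), the median of the 11 was 0.44, and S100a8 was at -0.49 (adjusted p = 0.279). Of the 11 defining markers, Adipoq of adipocytes was the only one at 0 in any library. With monocyte and neutrophil markers as a covariate Slfn1 and Slfn4 kept their calls in type 1 tissue at day 7 (1.04 and 1.39, adjusted p = 0.0095 and 0.016) and in type 2 tissue at day 28 (1.24 and 1.22, adjusted p = 0.0032 and 0.015). With the interferon-stimulated genes as a covariate they kept them in type 1 tissue at day 7 (1.22 and 1.34, adjusted p = 0.0066 and 0.012) but not in type 2 tissue at day 28 (0.53 and -0.09), a fit in which 1 gene of all tested was called. Genes that make up these covariates were themselves called between the groups, and the part of tissue makeup in the Schlafen changes was not tested.

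**Figure D4:**
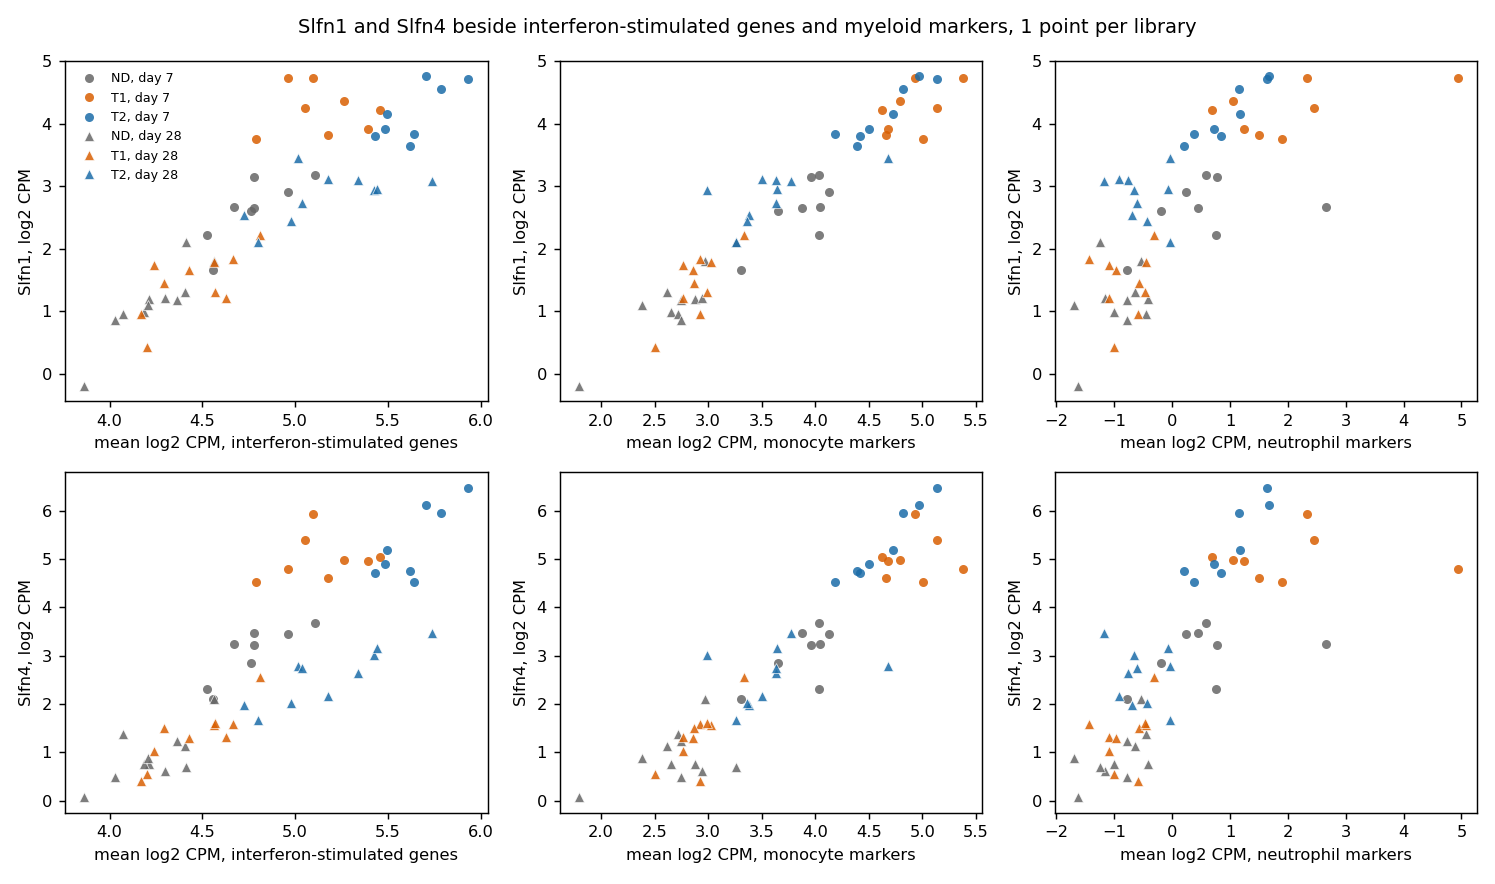
Slfn1 (top) and Slfn4 (bottom), log2 CPM, against the mean log2 CPM of 25 interferon-stimulated genes, 14 monocyte markers and 14 neutrophil markers, 1 point per library (circles day 7, triangles day 28; ND non-diabetic, T1 type 1, T2 type 2 diabetic). Type 1 libraries at day 7 hold Slfn4 at 23.1 to 60.5 CPM and type 1 replicate 4 is the point farthest right in the neutrophil panels.

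The members also varied together between libraries of a group. As a description, Pearson r was taken over deviations of log2 CPM from the group means, in 24 libraries at day 7 and 31 at day 28, which share tissue makeup and depth as sources of variation. At day 7 the values differed in sign. Slfn1 and Slfn4 had r = 0.85, Slfn8 and Slfn9 had 0.77 and Slfn5 and Slfn8 had 0.75, while Slfn2 was at -0.21 with Slfn5, -0.18 with Slfn8 and -0.39 with Slfn9. At day 28 no pair was negative: Slfn1 had r = 0.86 with Slfn2 and 0.81 with Slfn8, Slfn4 had 0.84 with Slfn8, and Slfn2 had 0.80 with Slfn8. Slfn3 was most like Slfn5 at both days (0.61 and 0.70).

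**Figure D5:**
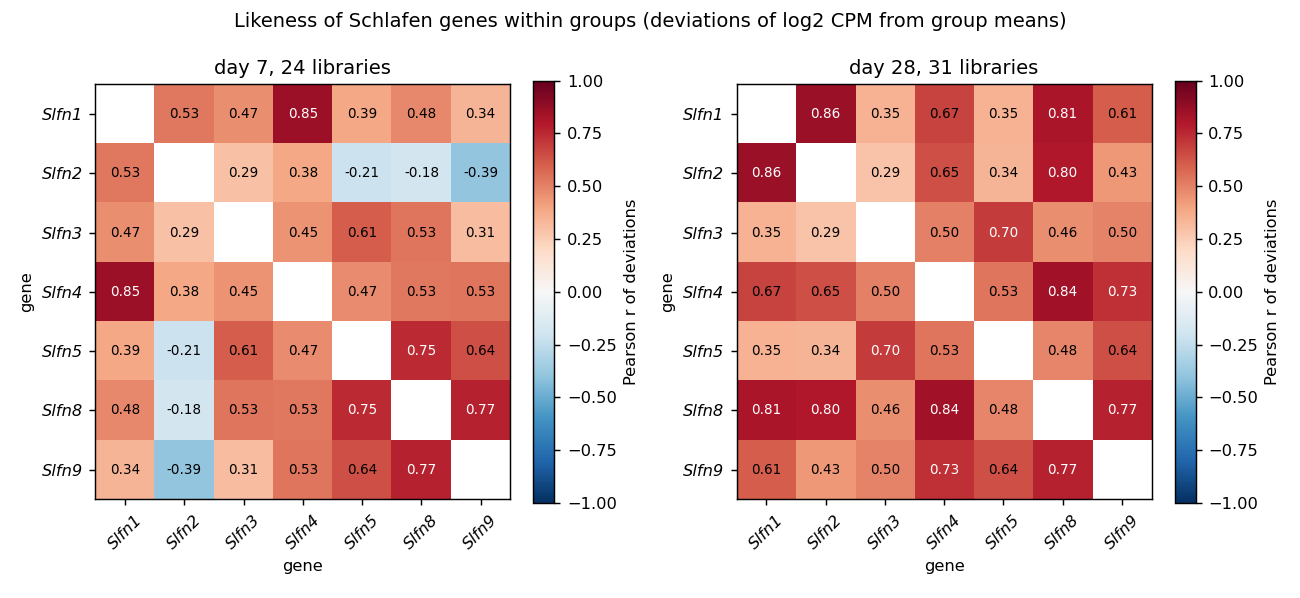
Pearson r between Schlafen genes over libraries, from deviations of log2 CPM from group means, at day 7 (24 libraries, left) and day 28 (31 libraries, right), red for positive and blue for negative values. Slfn2 is negative with Slfn5, Slfn8 and Slfn9 at day 7, and no value is negative at day 28.

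Genes outside the family were ranked by the same r. At day 7, Slfn1 was most like Ifi204 (0.85), Slc38a1 (0.83) and Itgam (0.83), a myeloid integrin. Slfn4 was most like Steap1 (0.82), Timp1 (0.81) and the interferon-inducible Ifi211 (0.79). The nearest genes to Slfn2 were the myeloid receptor Cd300lf (0.94), Emb (0.92) and Map3k8 (0.92). For the long forms at day 7 the nearest were Ccdc47 (0.86), Cyld (0.83) and Herc6 (0.82) for Slfn5, 5430427O19Rik (0.91), Herc6 (0.91) and Vcpip1 (0.91) for Slfn8, and Canx (0.96), Caprin1 (0.96) and Golga3 (0.94) for Slfn9. Slfn3 came nearest to Gm5431 (0.73), Ralgapb (0.72) and Fnip1 (0.71).

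At day 28, Slfn4 was most like Oasl2 (0.91), Ddx58 (0.87) and Ifih1 (0.85), the last 2 sensors of viral RNA. Slfn9 was nearest to Ifih1 (0.87), Phf11d (0.85) and the kinase Eif2ak2 (0.83), which halts translation when it binds double-stranded RNA. Slfn8 was nearest to Trim12c (0.89), Trim30a (0.87) and Trim30d (0.87). Slfn1 was nearest to Ifi47 (0.89), Aoah (0.87) and Mpeg1 (0.87), and Slfn2 to Mitd1 (0.83), Irf9 (0.83), a transcription factor of the interferon response, and Atp1b3 (0.82). For Slfn5 these were Iws1 (0.82), Ifi44 (0.81) and Ranbp2 (0.80), and for Slfn3 Ankhd1 (0.86), Trip12 (0.85) and Bdp1 (0.83).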

How the data were processed

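RNA from infarcted left ventricle was sequenced in 55 libraries, with poly(A) selection by a stranded kit, per the labels' protocols. The authors deposited raw counts per Ensembl gene in 1 table a day, and every column used matched a sample's label. Per the submitters' processing notes the build was mm39 and DESeq2 was used. Neither aligner nor counter, nor its strand setting, is given in the sources used here, so reads of a gene and its antisense partner cannot be told apart. The series' design text names day 7 only, and day 28 rests on the sample titles. Even numbers made up 76.4 percent (day 7) and 75.2 percent (day 28) of counts from 1 to 49, as if both mates of a pair had been counted, so counts overstate the number of fragments. No pair of libraries agreed within sampling noise. Gene names came from GENCODE M21 (GRCm38), which matched 51948 and 51880 identifiers, holding 99.34 and 99.58 percent of counts. Gene lengths came from the same annotation, and no genome of build mm39 was used here.

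Counts were tested with edgeR 4.0.16 in R 4.3.3 (quasi-likelihood test, TMM scaling, filterByExpr with a minimum count of 10 and total of 15). The 3 groups of a day shared 1 fit, and the difference between days was taken from a fit of all 6 groups. A gene was called at a Benjamini-Hochberg adjusted p at or under 0.05 over all genes tested. Levels are CPM (counts relative to the effective library size, that is the library total times its TMM factor), with a prior count of 2 on the log2 scale, and SE is the log2 change over the root of F. Alternatives were DESeq2 1.42.0, limma 3.58.1 (voom), other scaling and filters, marker means as covariates, libraries summed by the first number of their name, paralogs summed, a replicate block and each library left out. The fits with interferon-stimulated genes and with T and NK cell markers as covariates were chosen after seeing the data. The tests were tried on simulated data first. The members and lists were chosen with earlier results of these data known. Named genes are the members, the 3 genes most alike to each at each day (mean log2 CPM of at least 1), up to 3 genes a list by smallest p in type 1 against non-diabetic tissue at day 7, a few set by name, and defining markers. A few genes of these lists are not reported here by name.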

Additional observations from a re-analysis of the deposited data

Results flagged for a closer look

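Slfn9 in type 1 replicate 4 at day 7 was at 3.96 log2 CPM, far below the other 7 type 1 libraries of that day, the nearest of which was at 4.84. It was the only flag among the 35 groups of member values with few enough libraries to be tested for a distant sample, where chance flags about 1 in 20 groups. The same library had the lowest cardiomyocyte and the highest B cell, neutrophil and adipocyte marker sums of its group (3030, 3977, 827.3 and 594.3 CPM). The part of these markers in its Slfn9 level was not tested.

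The type 1 change differed between the days for Slfn1 (day 28 minus day 7, -1.28, adjusted p = 0.00276) and Slfn4 (-1.53, adjusted p = 0.00525). Without type 1 replicate 4 of day 7 the Slfn1 difference was -1.21 (adjusted p = 0.00494). Day and sequencing project cannot be told apart, although each change was taken within a day.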

How the results depend on the processing

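The number of members called varied with the setting, and so did the number of all genes called. With single libraries left out, all genes called ran from 157 to 1112 between the types at day 7. In type 1 against non-diabetic tissue at day 7 they ran from 3201 to 5345. A changed count of members is therefore not read as particular to them. In type 1 against non-diabetic tissue at day 7 it was 4, with 2 under the neutrophil and monocyte covariate and 3 to 6 with single libraries left out. Type 2 against non-diabetic tissue at day 7 proposed the family and is given as a description, so no count of called members is given for it. Between the diabetic types at day 7 it was 0, with 2 under DESeq2, limma-voom and a fit of only the groups compared, and 0 to 2 with single libraries left out. In type 1 tissue at day 28 it was 0, with 1 under limma-voom. In type 2 tissue at day 28 it was 5, with 3 under the neutrophil and monocyte covariate, 0 under the interferon-stimulated gene covariate and 5 to 6 with single libraries left out. Between the types at day 28 it was 5, with 2, 0 and 3 under the neutrophil and monocyte, interferon-stimulated gene, and T and NK cell covariates, 3 with summed libraries and 5 without any single library. The difference between days was rerun without 1 library only, type 1 replicate 4, and gave 3 calls in place of 2.

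Values changed sign as follows. Under the interferon-stimulated gene covariate they were, in type 1 tissue at day 7, -0.15 for Slfn8, in type 2 tissue at day 7, -0.11 for Slfn3, -0.01793 for Slfn5, -0.29 for Slfn8 and -0.32 for Slfn9, between the types at day 7, 0.23 for Slfn3, 0.62 for Slfn4, 0.03417 for Slfn5, 0.13 for Slfn8 and 0.44 for Slfn9. At day 28 under that covariate they were, in type 1 tissue, -0.25 for Slfn3, -0.07172 for Slfn5 and -0.19 for Slfn8, in type 2 tissue, -0.92 for Slfn3, -0.09006 for Slfn4, -0.28 for Slfn5, -0.15 for Slfn8 and -0.43 for Slfn9, and between the types 0.67 for Slfn3, 0.10 for Slfn4, 0.21 for Slfn5 and 0.16 for Slfn9. Between the types at day 7, Slfn1 was at -0.06724 and Slfn2 at -0.04345 under the cardiomyocyte covariate, -0.22 and -0.11 under the neutrophil and monocyte covariate and -0.01932 and -0.14 under the T and NK cell covariate, with Slfn1 at -0.05602 in summed libraries. In type 1 tissue at day 28, Slfn9 was at 0.04051 under limma-voom, Slfn8 at -0.03492 under the cardiomyocyte and -0.03421 under the neutrophil and monocyte covariate, and Slfn3 at -0.04759 and Slfn9 at 0.00999 in summed libraries. With single libraries left out, Slfn1 between the types at day 7 ran from -0.04685 to 0.13, and in type 1 tissue at day 28 Slfn3 ran from -0.02248 to 0.20, Slfn8 from -0.04765 to 0.13 and Slfn9 from -0.10 to 0.04078. Interferon-stimulated genes were themselves called between groups, so shifts under that covariate cannot be read as particular to the members. The cause of these shifts was not tested. Over single members, with left-out libraries not counted, 441 values kept direction and side of the threshold, and 34 changed sign. Of the others, which kept direction, 35 lost and 17 gained the call. Calls lost together with a change of sign are counted only among the 34. Slfn4, Slfn8 and Slfn9 in type 2 tissue at day 28 under the interferon-stimulated gene covariate are examples. Nearest genes were not part of this count, and several changed when group means were not subtracted. Those of Slfn5 at day 7 became Rnf213 (0.94), Ifih1 (0.93) and Ifi213 (0.91), while Slfn4 at day 28 kept Oasl2 and Ddx58.

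With the replicate number as a block, 5 members were called in type 1 against non-diabetic tissue at day 7 and 0 between the types. At day 28 it was 0, 5 and 5 in the 3 comparisons, and 2 in the difference between days. The share of all genes called under the block is not given here, so nothing particular to the members is read from these counts. The labels do not say that replicate numbers pair the libraries. Same-numbered libraries correlated over 0.1 in 3 to 5 of 8 pairs at day 7 and 3 to 6 of 10 at day 28. A library was most like the one with its own number in 1 to 2 of 8 cases at day 7 and 0 to 2 of 10 at day 28. Whether the numbers pair libraries was not tested. Over all genes, the count called between the types at day 7 was 492, with 1036 under DESeq2 and 2927 under limma-voom, and in type 1 tissue at day 28 it was 759, with 1219 and 3025. In the shallowest library, non-diabetic replicate 4 of day 7 with 10756242 counts in all, Slfn3 had 19 counts, the fewest of the members, so its values there are the least precise.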
